A study of Homo sapiens with 6 samples.

Results

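The genes described here mark stages of thymocyte development, the maturation of T cells in the thymus, and were measured in Jurkat cells, an established human leukaemia line of the T lineage (T-ALL, T cell acute lymphoblastic leukaemia). The 10 genes are CD1A, CD1D, CD1E, CD4, CD7, CD8A, CD8B, RAG1, RAG2 and DNTT, taken by name from a given list, out of 17687 genes with a symbol on the array. All 10 were measured, each by 1 probe set. RNA came from 6 cultures of the line, each on its own Affymetrix array. The 3 suspension samples, which the labels call control, stayed in RPMI medium with 10% fetal bovine serum for 3 h. The 3 samples called 3D were mixed into bovine type I collagen at 1.7 mg/mL, which set for 1 h at 37 °C and was then covered with medium for 2 h. Both groups are the same unmodified cell line, and the labels number the biological replicates of each group 1 to 3. What the numbers stand for, such as a day or a passage, is not stated, so p-values measure only the spread between these samples, which may be technical.

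During thymocyte development the T cell receptor genes are assembled from separate segments. The proteins RAG1 and RAG2 form the enzyme that cuts DNA at these segments, and terminal deoxynucleotidyl transferase, encoded by DNTT, adds bases to the cut ends before they are joined. Immature thymocytes pass from a stage without CD4 and CD8 to one with both, at which CD1 proteins are also on the surface, and mature cells keep 1 of the 2 coreceptors. T cell acute lymphoblastic leukaemias are often classed by the stage whose genes they express.

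Levels are deposited log2 values per probe set, so a difference of 1 is a 2-fold difference. Probe sets differ in how strongly they respond, and differences are therefore taken between arrays for the same gene, while levels of marker lists are given as ranges only. Array medians lay between 5.55 and 5.64, and correlations between arrays over all genes between 0.971 and 0.991. The 10 T cell markers listed in the methods measured 7.66 to 11.61, and the 42 measured markers of other cell types 2.04 to 8.60, with a median of 4.09, so the ranges overlapped. The summed log2 level of these 42 ran from 10.98 to 11.15 in suspension and from 10.82 to 11.12 in 3D. Between 3D and suspension limma called 0 of 17687 genes (0%) at an adjusted p under 0.05, with 1745 at an unadjusted p under 0.05.

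The genes of the recombination machinery varied more with the replicate number than any other genes of the list. Their promoters are shown for that reason, a choice made after the values were seen. Low values on the arrays numbered 1 were not particular to these 3 genes. In the test between replicate numbers described below, 297 of the 527 genes called were lower on those arrays. The set of promoter sequences used here (GRCh38.p14) held entries for 7 of the 10 genes. The 250 bases before the 1 start listed there for each gene are given 5′ to 3′ on the gene's own strand. Whether Jurkat cells use these starts was not tested, so the windows may not be the promoters active here. They cover chr11:36510103-36510352 (plus strand) for RAG1, chr11:36598237-36598486 (minus strand) for RAG2 and chr10:96304184-96304433 (plus strand) for DNTT. Capitals mark CANNTG, the E-box, a motif bound by basic helix-loop-helix factors such as the E proteins of lymphocytes.
RAG1: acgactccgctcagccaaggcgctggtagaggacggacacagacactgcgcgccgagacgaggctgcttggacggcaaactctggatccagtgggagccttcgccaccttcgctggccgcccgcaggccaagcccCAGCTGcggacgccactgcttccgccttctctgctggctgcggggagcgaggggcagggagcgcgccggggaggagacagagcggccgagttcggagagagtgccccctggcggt
RAG2: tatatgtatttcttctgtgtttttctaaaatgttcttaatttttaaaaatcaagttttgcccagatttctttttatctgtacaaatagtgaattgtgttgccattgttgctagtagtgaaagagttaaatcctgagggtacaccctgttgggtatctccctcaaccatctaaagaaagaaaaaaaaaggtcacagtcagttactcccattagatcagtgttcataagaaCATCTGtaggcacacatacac
DNTT: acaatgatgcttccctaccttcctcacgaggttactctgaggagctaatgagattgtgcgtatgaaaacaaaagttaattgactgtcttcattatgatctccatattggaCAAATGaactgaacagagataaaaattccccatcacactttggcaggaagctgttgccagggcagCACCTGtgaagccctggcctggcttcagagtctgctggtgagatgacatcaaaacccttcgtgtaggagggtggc
The E-box occurred 1 time in the RAG1 and RAG2 windows and 2 times in that of DNTT, where 61.8% of 35116 promoter windows of 250 bases held at least 1. AGATAA, bound by transcription factors of the GATA family and searched on both strands, occurred 1 time each before RAG2 and DNTT and 0 times before RAG1, against 9.2% of all windows. TGTGGT, bound by factors of the RUNX family and searched on both strands, occurred in none of the 3, against 11.0% of all windows. No hits of these motifs overlapped. Such matches describe letters in the window and are not binding sites. The windows differed in base composition, with 70.0% G and C for RAG1, 34.0% for RAG2 and 46.4% for DNTT.

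RAG1, the catalytic subunit of the recombinase, measured 3.39 in suspension replicate 1, 5.99 in replicate 2 and 6.38 in replicate 3, and in 3D 3.62, 6.13 and 6.35, in that order. Both arrays numbered 1 were low and the other 4 were high, in suspension and in 3D alike, so the groups overlapped almost fully. The suspension mean was 5.25 ± 1.62 (SD, n = 3), and 3D averaged 5.37 ± 1.52 (SD, n = 3). The values of both arrays numbered 1 lay below the lower quartile of all probe sets on those arrays (3.82 and 3.76), a range in which a low level cannot be told from no expression. In RNA of whole cultures, fewer cells with a transcript and less of it per cell cannot be told apart.

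RAG2, its partner subunit, measured 4.06, 5.21 and 5.68 in suspension and 4.79, 5.78 and 5.30 in 3D. Again the arrays numbered 1 were the lowest of each group. The means were 4.99 ± 0.83 (SD, n = 3) and 5.29 ± 0.50 (SD, n = 3). RAG1 and RAG2 are neighbours on chromosome 11, between the coding genes TRAF6, a ubiquitin ligase, and IFTAP, whose span overlaps that of RAG2. Over the 2 arrays of each number, the means of TRAF6 lay within 0.18 log2 of each other. IFTAP measured 3.19 to 3.42 on all arrays, below their lower quartiles, so its level cannot be told from no expression.

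DNTT, which codes for the template-free polymerase, measured 4.71, 6.09 and 5.95 in suspension and 4.26, 5.83 and 6.08 in 3D. It too was low on both arrays numbered 1 and high on the other 4. The means were 5.58 ± 0.76 (SD, n = 3) and 5.39 ± 0.98 (SD, n = 3).

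**Figure D1:**
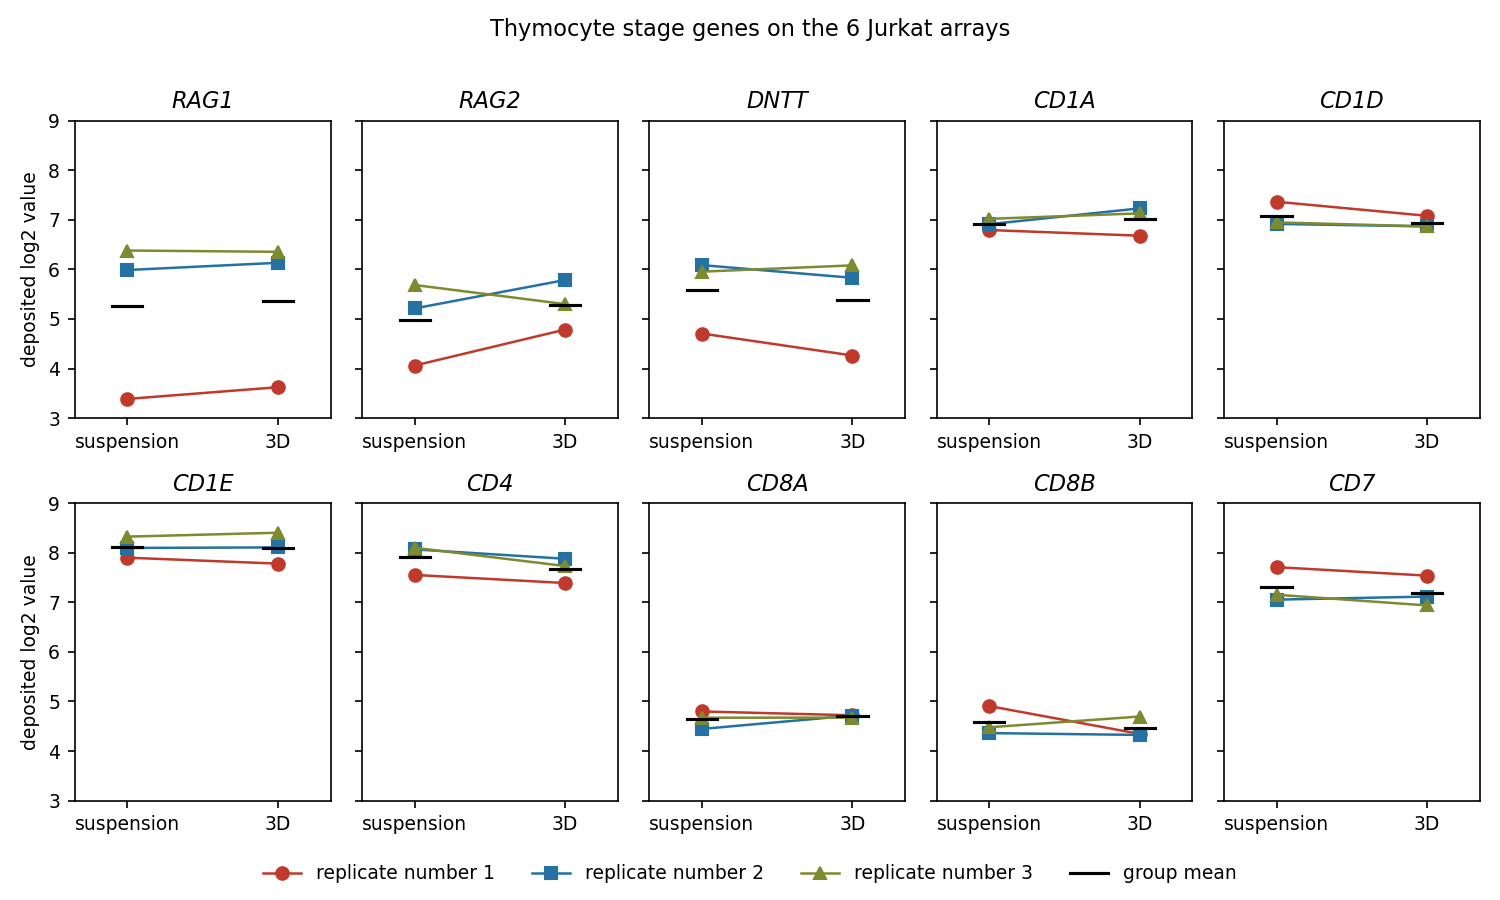
Deposited log2 value (y axis) of each of the 10 genes on the suspension and 3D arrays (x axis), 1 panel per gene. Coloured lines join arrays with the same replicate number and black bars are group means; for RAG1, RAG2 and DNTT the line of replicate number 1 lies below the other lines, while suspension and 3D means lie close together.

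The CD1 genes encode molecules that present lipids to T cells. CD1A, which marks cortical thymocytes, measured 6.79, 6.91 and 7.02 in suspension and 6.68, 7.23 and 7.13 in 3D. CD1D, which presents lipids to natural killer T cells, measured 7.36, 6.92 and 6.95 in suspension and 7.08, 6.87 and 6.86 in 3D. CD1E, an intracellular lipid-loading member, measured 7.90, 8.09 and 8.32 in suspension and 7.78, 8.11 and 8.40 in 3D. The arrays numbered 1 were lowest for CD1A and CD1E and highest for CD1D, by smaller amounts than for the recombination genes. These genes lie with CD1B and CD1C in a row on chromosome 1. CD1B and CD1C, which are not on the list, had means over the 2 arrays of each number that differed by 0.13 and 0.07. Dendritic cells also express CD1 genes. The 6 dendritic cell markers other than CD1C measured 2.51 to 4.78, and their part in the CD1 levels was not tested. Their summed log2 level ran from 6.08 to 6.27 in suspension and from 6.18 to 6.25 in 3D.

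CD4, the coreceptor for MHC class II, measured 7.55, 8.06 and 8.10 in suspension and 7.39, 7.88 and 7.73 in 3D. In each pair of arrays with the same number the 3D value was lower (log2 differences of -0.16, -0.19 and -0.37 in numbers 1, 2 and 3), yet the groups overlapped because suspension replicate 1 lay below 3D replicates 2 and 3. CD8A and CD8B, the chains of the coreceptor for MHC class I, stayed under 6, the limit used here for dim genes, on all arrays. CD8A measured 4.80, 4.45 and 4.67 in suspension and 4.72, 4.72 and 4.67 in 3D. CD8B measured 4.91, 4.36 and 4.48 in suspension and 4.35, 4.33 and 4.70 in 3D. CD8B has a near-identical copy, CD8B2, so which of them gave its signal is uncertain. CD7, a surface protein carried from the earliest T lineage stages on, measured 7.71, 7.05 and 7.15 in suspension and 7.54, 7.11 and 6.93 in 3D. CD7 thus ran opposite to CD4, being highest on both arrays numbered 1.

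None of the 10 genes differed detectably between 3D and suspension after 3 h. Of the 10, 4 had a higher mean in 3D and 6 a lower one, and the groups overlapped for all 10, where 16.3% of all genes had groups without overlap. The median log2 difference of the 10 was -0.06, beside -0.02 for all genes. RAG2 had the largest difference at 0.30 ± 0.37 (SE), or 1.24-fold, with a limma adjusted p of 0.803. CD4 followed with -0.24 ± 0.20 (adjusted p 0.702) and DNTT with -0.19 ± 0.46 (0.908). The differences were -0.14 ± 0.18 for CD1D, -0.13 ± 0.19 for CD8B, 0.12 ± 0.79 for RAG1, -0.11 ± 0.22 for CD7, 0.10 ± 0.18 for CD1A, 0.06 ± 0.16 for CD8A and -0.01 ± 0.20 for CD1E, with limma adjusted p from 0.811 to 0.992.

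How much of a difference the arrays could hide depended on the gene. For RAG1 the 95% confidence interval ran from -1.64 to 1.87 log2, which leaves room for more than a 2-fold change either way. For DNTT it ran from -1.21 to 0.83 and for RAG2 from -0.52 to 1.12. Among the other 7 genes the lowest limit was -0.69 (CD4) and the highest 0.51 (CD1A). The replicate numbers paired the samples by the rule given in the methods, which did not tell numbers 2 and 3 apart. In the fit blocked on replicate number the RAG1 interval narrowed to -0.20 to 0.44, that of DNTT to -0.54 to 0.16 and that of RAG2 to -0.14 to 0.75. None of the 10 passed with the block either (limma adjusted p from 0.421 for CD4 to 0.982 for CD1E), where 16 genes or 0.0905% of all did. Without the block, leaving out suspension replicate 1 turned the RAG1 difference to -0.81 and that of RAG2 to -0.16. Leaving out 3D replicate 1, also without the block, turned the DNTT difference to 0.37. With the block and any pair left out, the differences of these genes kept their sign.

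**Figure D2:**
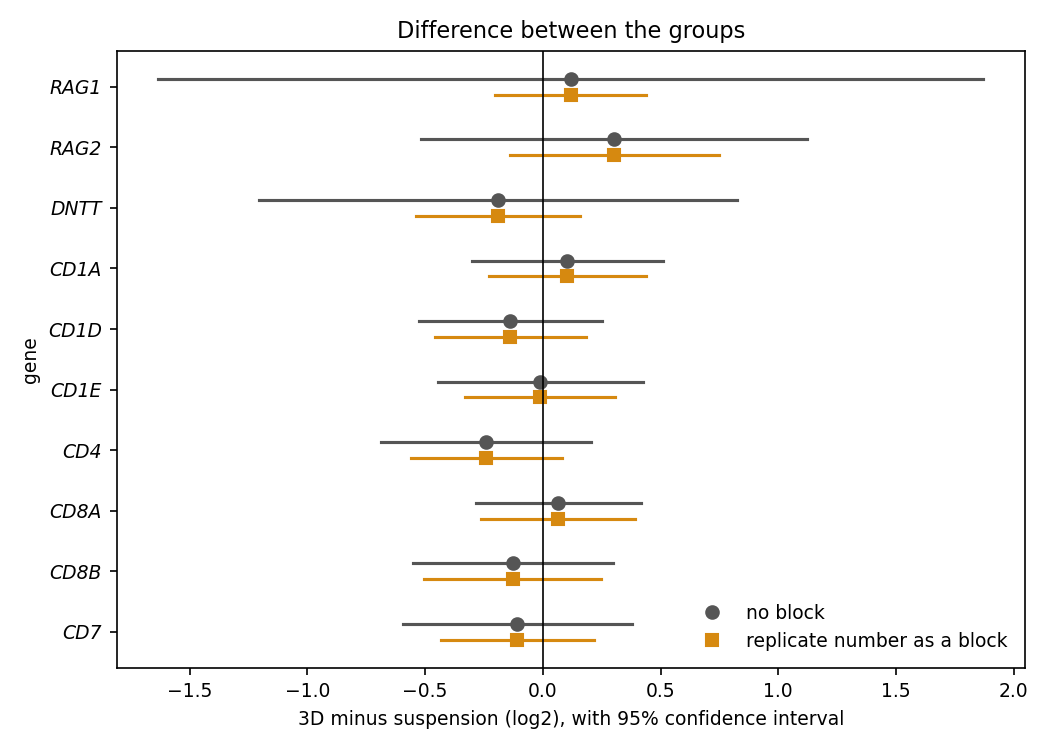
Difference between 3D and suspension (x axis, log2) for each gene (y axis), with 95% confidence intervals from the fit without a block (circles) and from the paired fit, blocked on the replicate number (squares). All intervals include 0; that of RAG1 spans -1.64 to 1.87 unblocked and -0.20 to 0.44 blocked.

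The difference between replicate numbers was then tested, a test added after the values were seen. Limma fitted group and replicate number to all genes, and an F test asked whether the means of the 3 numbers differed. The size is given as the spread, the highest minus the lowest of the 3 number means. It called 527 genes, or 2.98% of all, and 3 of the 10 thymocyte genes: RAG1, DNTT and RAG2. RAG1 had means of 3.51, 6.06 and 6.37 for numbers 1, 2 and 3, a spread of 2.86 log2 or 7.26-fold (adjusted p 7.04e-05). In this fit it was the largest spread of all 17687 genes, whose median was 0.30 and whose 99th percentile was 1.16. As its values on the arrays numbered 1 lay in the range that cannot be told from no expression, the spread, the fold and the rank of RAG1 are not exact. DNTT had means of 4.48, 5.96 and 6.02, a spread of 1.53 or 2.89-fold (limma adjusted p 0.00270), which ranked 52 among all genes. RAG2 had means of 4.42, 5.50 and 5.49, a spread of 1.08 or 2.11-fold (limma adjusted p 0.0462), which ranked 260. The RAG2 call was lost after quantile normalization (adjusted p 0.0538) and without suspension replicate 1 (spread 0.76, adjusted p 0.364). RAG1 and DNTT passed with any single array left out, with limma adjusted p up to 1.70e-05 and 0.0149.

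The remaining 7 did not pass. CD7 had a spread of 0.58 (limma adjusted p 0.153), CD1E of 0.52 (0.255) and CD4 of 0.50 (0.228). CD1A, CD1D, CD8B and CD8A had spreads of 0.34, 0.33, 0.28 and 0.18, with adjusted p from 0.478 to 0.842. Among genes of mean at or above 6 alone, CD7 and CD4 passed (adjusted p 0.0185 and 0.0477), as did 1835 of all 8342 genes tested there, or 22%, while RAG1, RAG2, DNTT, CD8A and CD8B, whose means lay under 6, were not tested. With both arrays numbered 1 left out, numbers 2 and 3 differed by 0.31 for RAG1, 0.06 for DNTT and 0.01 for RAG2, and limma called 0 genes between these numbers, with 1064 at an unadjusted p under 0.05. The split of the arrays numbered 1 from the other 4 was also chosen after the values of these genes were seen, which partly sets the following count. The values of 9 of the 10 genes on the arrays numbered 1 did not overlap those on the other 4, with CD8B the exception, against 25% of all genes. Of these 9, CD1A, CD1E, CD4, RAG1, RAG2 and DNTT were lower and CD1D, CD7 and CD8A higher, CD8A by less than the rounding used here.

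**Figure D3:**
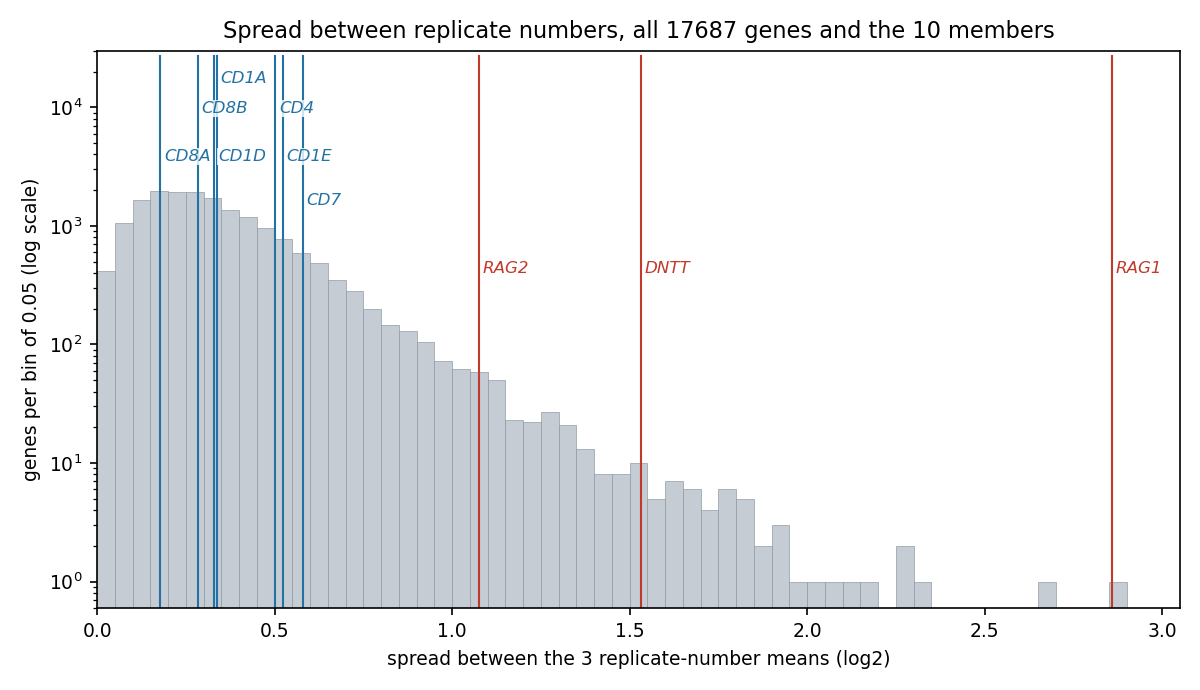
Number of genes (y axis, log scale) by the spread between the means of the 3 replicate numbers (x axis, log2), with the 10 thymocyte stage genes as vertical lines. Red lines passed the F test and blue lines did not; RAG1 at 2.86 lies beyond every other gene, with DNTT at 1.53 and RAG2 at 1.08.

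To find the genes most like a given member, each gene was centred on its own mean. The smallest root mean square differences over the 6 arrays were then taken. The arrays share a labelling kit and normalization. For CD1E the nearest genes were GUCY1B1 (0.03 log2), RAP2C (0.04) and SPRY1 (0.04). For CD4 they were SH3GLB2 (0.04), PYCARD (0.05) and HHEX (0.05), and for CD7 DAD1, ALDH18A1 and CRLF3 (0.03, 0.04 and 0.04). These members varied little, with standard deviations of 0.22, 0.26 and 0.28 over the 6 arrays. RAG1, RAG2 and DNTT were added after their values were seen, and RAG1 had a standard deviation of 1.29. Its nearest genes were CENPE, a kinetochore motor gene (root mean square difference 0.25), P4HA1, a collagen prolyl hydroxylase subunit gene (0.31), and PPP1R1C, a phosphatase inhibitor gene (0.31). CENPE had means of 6.93, 9.32 and 9.60 for numbers 1, 2 and 3, the next largest spread after RAG1. RAG2, with a standard deviation of 0.58, lay nearest to GPR183, TRPV1 and RPL7 (0.15, 0.15 and 0.16). DNTT, with a standard deviation of 0.72, lay nearest to NRN1, P2RY10 and RHEX (0.13, 0.17 and 0.17).

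The other genes of thymocyte development came from 5 lists with 74 measured genes, of which 0 passed between the groups, with or without the block. The list of V(D)J joining partners holds genes of repair proteins that complete the reaction begun by RAG1 and RAG2, and also HMGB1, HMGB2 and PTCRA. It centred on a log2 difference of 0.27 (median of 13 genes), with 8 higher in 3D and 5 lower. The lower 5 were POLL (-0.28), NHEJ1 (-0.26), PTCRA (-0.25), PAXX (-0.21) and XRCC6 (-0.00064), so the repair genes did not all run 1 way. The list median was 0.28, 0.27 and 0.23 in the pairs numbered 1, 2 and 3, beside -0.04, 0.05 and -0.03 for all genes. At an unadjusted p under 0.05 (limma) 3 of the 13 were higher and 0 lower, beside 1043 higher and 702 lower of all 17687 genes. ATM, the kinase that senses double-strand breaks, had a difference of 0.60 ± 0.15 (SE), LIG4, the ligase of end joining, 0.53 ± 0.23, DCLRE1C, the Artemis nuclease that opens hairpin ends, 0.44 ± 0.15, and HMGB1, a DNA-bending cofactor of the recombinase, 0.37 ± 0.19. Their limma adjusted p ran from 0.359 to 0.537. PTCRA, the invariant partner chain of the pre-T cell receptor, measured 5.10, 5.12 and 5.15 in suspension and 5.03, 4.64 and 4.95 in 3D. Its groups did not overlap, and its adjusted p was 0.616 (limma).

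The other 4 lists had medians near that of all genes. Early thymic progenitor genes stood at -0.07 over 13 genes, with NOTCH1, the receptor that commits progenitors to the T lineage, at -0.42 ± 0.19 (SE), and SPI1, a myeloid and progenitor factor gene, at -0.32 ± 0.17. HHEX, a homeobox gene, stood at -0.22 ± 0.21 and IL7R, a cytokine receptor gene, at 0.12 ± 0.15. Double positive stage genes stood at -0.09 over 14, with CD5, an inhibitory receptor gene, at -0.30 ± 0.16 and TCF12, an E protein gene, at 0.26 ± 0.19. ARPP21 stood at 0.23 ± 0.18 and BCL6, a repressor gene, at -0.39 ± 0.31. Selection and single positive stage genes stood at -0.09 over 16, with ID3, an inhibitor of E proteins, at -0.55 ± 0.19 and ZBTB7B, the CD4 lineage factor gene, at -0.43 ± 0.26. RUNX3, a factor gene of the CD8 lineage, stood at -0.24 ± 0.15 and CD27, a costimulatory receptor gene, at -0.35 ± 0.22. Stage regulators stood at -0.01 over 18, with IKZF3, the Aiolos gene, at 0.55 ± 0.18 and ZBTB1, a zinc finger gene, at 0.42 ± 0.17. ID2, an inhibitor of E proteins, stood at -0.31 ± 0.15 and BCL11B, a T lineage commitment factor gene, at -0.44 ± 0.24.

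Between replicate numbers 5 of the 74 passed the F test, again beside 2.98% of all genes, and all 5 were lowest on the arrays numbered 1. XRCC4, the scaffold that holds LIG4 at DNA ends, measured 5.47, 8.33 and 7.41 in suspension and 6.68, 7.80 and 8.13 in 3D, a spread of 1.99 (limma adjusted p 0.0119). HMGB2, a relative of HMGB1, had a spread of 1.17 (0.0109), and was, with XRCC4, 1 of 2 joining partners of 13 to pass. CD69, an early marker of selected thymocytes, measured 4.37, 6.37 and 6.26 in suspension and 5.28, 6.85 and 7.01 in 3D, a spread of 1.80 (limma adjusted p 0.000876). Its difference between the groups was 0.72 ± 0.54 (SE), with 0.91, 0.48 and 0.75 in the pairs numbered 1, 2 and 3, and its limma adjusted p was 0.668 without the block and 0.0802 with it. BCL11A, a progenitor factor gene, had a spread of 1.44 (limma adjusted p 0.00695) and BCL6 of 0.97 (0.0403). Among the T cell markers 0 of 10 passed this test and 3 had an unadjusted p under 0.05 (limma), where 17.6% of all genes did. Of the 42 markers of other cell types 1 passed, NKG7, a granule protein gene of cytotoxic cells. It ran the other way, at 7.29 and 7.69 on the arrays numbered 1 and from 5.97 to 6.53 on the other 4. The summed log2 level of the 5 measured NK cell markers was 8.27 to 8.48 on the arrays numbered 1 and 7.73 to 8.13 on the others. Of the other 4, PRF1 had means of 6.33, 6.75 and 6.57 for numbers 1, 2 and 3, and NCAM1 of 5.90, 5.85 and 5.88. KLRD1 had means of 2.17, 2.29 and 2.34 and KLRF1 of 2.70, 2.62 and 2.45, both near the lowest values on the arrays. A higher sum on the arrays numbered 1 was not particular to NK cell markers. The B cell sum was 9.526 to 9.555 there and 8.918 to 9.37 on the others. Its brightest genes, CD79A and BLK, had means of 8.5, 8.22 and 8.12 and of 8.06, 7.52 and 7.49 for numbers 1, 2 and 3. Those of CD79B were 5.99, 5.89 and 5.92, of PAX5 5.32, 5.31 and 5.08 and of MS4A1 3.11, 3.09 and 3.21. For all 42 markers the sum was 11.12 to 11.15 and 10.82 to 11.03, and the T cell sum was also higher without overlap. The sums of monocyte, dendritic, stromal, erythroid and endothelial or epithelial markers overlapped. The part of these markers in the results was not tested.

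**Figure D4:**
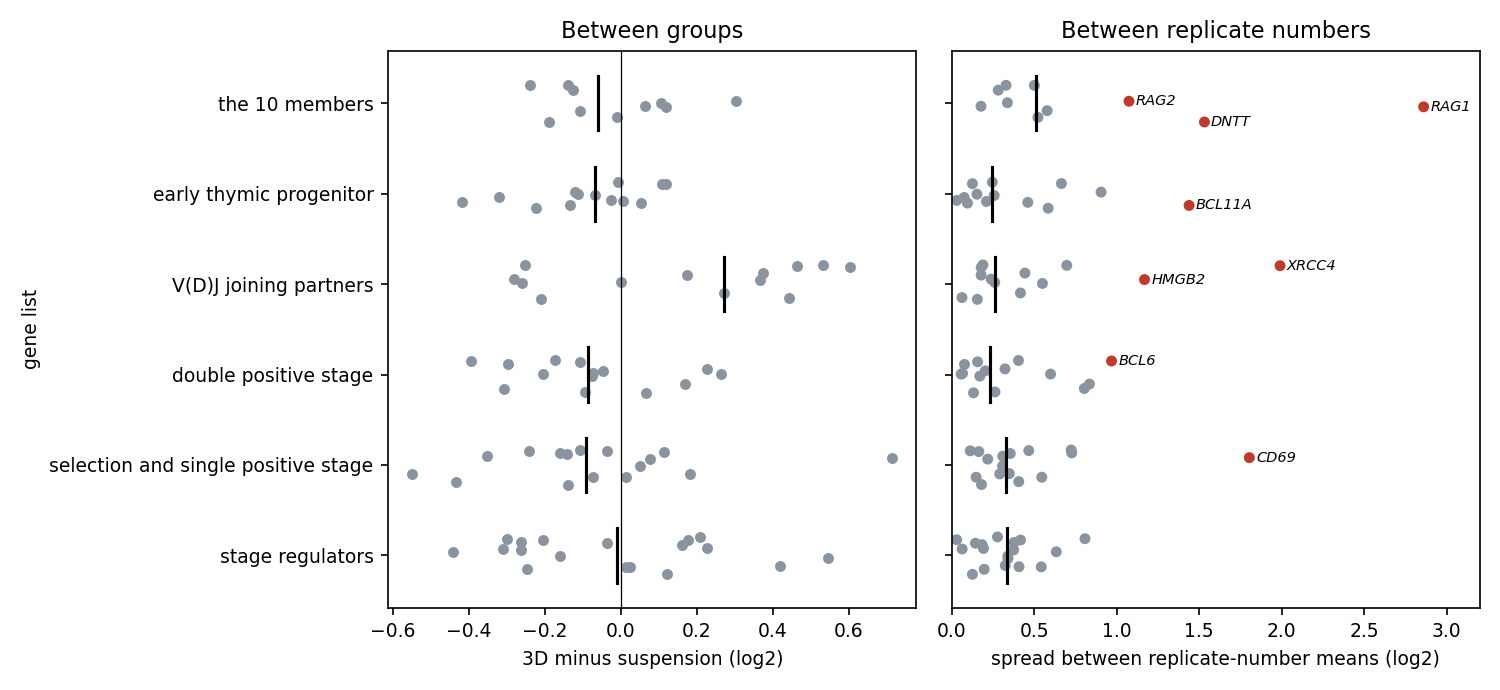
Each point is 1 gene of the list named on the y axis, and black bars are list medians. The left panel gives the difference between 3D and suspension (log2), with no gene passing. The right panel gives the spread between replicate-number means (log2), with red points for genes that passed the F test, namely RAG1, RAG2, DNTT, BCL11A, XRCC4, HMGB2, BCL6 and CD69.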

How the data were processed

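The authors deposited 1 log2 value per probe set and array, made with RMA and the Transcriptome Analysis Console per the submitters' processing notes; versions and genome build are not given in the sources used here. A GeneChip kit for whole transcripts labelled the RNA, per the labels' protocols. RMA shrinks differences of dim probe sets. The members and lists were chosen with earlier results of these data known.

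Of 21448 probe sets, 17709 had 1 gene symbol in the platform's table, 0 several and 3739 none; all 17709 matched RefSeq by gene identifier. Keeping the highest-mean probe set per gene left 17687 genes. Groups and replicate numbers came from titles. Limma 3.58.1 (R 4.3.3; lmFit, eBayes) tested all genes, two-sided, without a block and with no filter, Benjamini-Hochberg adjusted, threshold 0.05 (4 residual and 6.79 prior degrees of freedom). Tests were tried on simulated data with independent noise and planted shifts larger than any member's difference between the groups. That simulation cannot show how well smaller differences would be found.

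Deviations from the group means correlated between arrays of the same number at 0.521, 0.120 and 0.337. Since all lay over 0.1, arrays of equal number were treated as pairs. Grounds were weak for numbers 2 and 3, as suspension 2 with 3D 3 (0.230) and suspension 3 with 3D 2 (0.149) also did. For number 2 the correlation with 3D 3 was the higher. The rule thus separated only number 1 from the other numbers.

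All members were named. From each list came the 4 genes of smallest p between the groups, also PTCRA, CD1B and CD1C. Genes named for their replicate-number spread or likeness to RAG1, RAG2 or DNTT were chosen after their values were seen. So were the NK and B cell markers named, the joining partners lower in 3D other than PTCRA, TRAF6 and IFTAP. The T cell markers were CD3D, CD3E, CD3G, CD247, CD2, CD5, CD28, LCK, TRAT1 and ZAP70. The other marker lists were of B, monocyte, dendritic, NK, erythroid and stromal cells and of endothelium or epithelium. Alternatives changed the block, dim filter, normalization, moderation, array trend, probe set rule and arrays used. Plots used matplotlib 3.10.9 and Python 3.11.15.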

Additional observations from a re-analysis of the deposited data

How the results depend on the processing

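Between the groups, limma called 0 genes in 13 settings without a block, those with 1 array left out included. With the replicate block it called 16, and 22 when array trends on gene span and neighbours were also removed. It called 1199 of 8342 (884 higher, 315 lower) for the blocked fit limited to means of 6 or more, a rise whose cause was not tested. It called 21, 150 and 36 with the block and pair 1, 2 or 3 left out. None of the 10 members passed in any of 170 combinations of member and planned setting, with adjusted p from 0.203 to 0.998, so the replicate block changed no member's call. The direction reversed in 22 of these. Changing only the block, dim filter, moderation, intensity trend or probe set rule could not move a member's difference, as each has 1 probe set. With span and neighbour trends removed, blocked or not, CD1E stood at 0.060 and CD7 at 0.011. With 1 array left out, the log2 difference ran from -0.81 to 0.99 for RAG1, from -0.16 to 0.65 for RAG2, from -0.63 to 0.37 for DNTT, from -0.0040 to 0.27 for CD1A, from -0.22 to 0.0059 for CD1D, from -0.16 to 0.15 for CD1E, from -0.28 to 0.093 for CD7, from -0.031 to 0.14 for CD8A and from -0.25 to 0.035 for CD8B. With the block and 1 pair left out, RAG1 ran from 0.060 to 0.19, RAG2 from 0.094 to 0.65 and DNTT from -0.35 to -0.064. In that fit leaving out pair 1 gave 0.045 for CD1E and 0.090 for CD8B. Leaving out pair 2 gave -0.0021 for CD1A and -0.037 for CD8A. CD4 stayed lower in all its 18 settings, though several of them could not change its difference. With 1 array left out the CD4 difference ran from -0.42 to -0.10.

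The test between replicate numbers and its settings were chosen after seeing the data. It called 1835 of 8342 genes with means of 6 or more, 1669 with an intensity trend, and 0 to 1392 with an array or a number left out. The count fell to 212 and 321 when replicate 1 of suspension or of 3D was dropped, and rose to 801 and 1108 when replicate 2 was. It was 0 without number 1, where 1064 had an unadjusted p under 0.05. The spread of CD4 (0.50) and CD7 (0.58) passed among genes with means of 6 or more, and that of CD7 (0.58) also with an intensity trend. RAG2 did not pass after quantile normalization (1.09). With arrays or numbers left out, the spread ran from 0.31 to 2.97 for RAG1, from 0.0073 to 1.58 for RAG2 and from 0.059 to 1.77 for DNTT, each lowest without number 1. With 3 arrays a group, precision is limited throughout.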
